A study of Homo sapiens with 32 samples.

Results

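The 10 genes described here are the transcription factors FOXL2, GATA4, GATA6 and WT1, the ligands or ligand subunits AMH, INHA and KITLG, and the receptors AMHR2, FSHR and LHCGR. They were chosen by gene symbol as genes by which granulosa cells and their response to gonadotropins are usually recognised, and all 10 have an entry among the 47137 gene entries of the tables, of which 18583 hold values. The cells were HGrC1, an established human granulosa cell line, so all groups come from 1 line. Cells from 4 separately thawed vials were each split into vehicle control (0.05% DMSO) and PFOS at 1, 0.1 or 0.01 µM and were kept for 6 or 12 weeks, with PFOS renewed at each passage. This gave 8 groups of 4 libraries, 32 in all. All groups, controls included, were kept in medium with 10% serum and a steroid at 100 nM, which the sample labels give as estradiol and the study's methods as testosterone. The labels name no other agent or genetic change in any group.

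Granulosa cells surround the oocyte. FOXL2 maintains their ovarian identity, and GATA4, GATA6 and WT1 are zinc-finger transcription factors of the gonad that are also found in other cell types, among them mesothelial and surface epithelial cells. Granulosa cells of growing follicles secrete AMH, which acts through its own receptor AMHR2, and inhibins, which contain the alpha subunit encoded by INHA. KITLG is the ligand by which granulosa cells signal to KIT on the oocyte. FSHR and LHCGR are the receptors for FSH and for LH and hCG. Both act through G proteins and cyclic AMP.

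Regulatory sequence was read for the members because GATA4 and GATA6 were the most abundant of the 4 transcription factors and GATA factors are known to bind the letters GATA in gonadal promoters. RefSeq promoters (GRCh38.p14) were found for 9 of the 10 genes, all but GATA4. The 250 bases before the start site were searched on both strands for the GATA motif in the forms AGATAA, its relative AGATAG, the form TGATAA, and its relative TGATAG. The motif of the steroidogenic factor NR5A1 was searched as AAGGTCA, and in its variant form as AAGGTCG. Below are AMH and INHA, the ligands whose windows held the GATA motif more than once, and FSHR for comparison, all 5′ to 3′ on the gene's strand with the GATA motif in capitals.
AMH, chr19:2249073-2249322 (plus strand): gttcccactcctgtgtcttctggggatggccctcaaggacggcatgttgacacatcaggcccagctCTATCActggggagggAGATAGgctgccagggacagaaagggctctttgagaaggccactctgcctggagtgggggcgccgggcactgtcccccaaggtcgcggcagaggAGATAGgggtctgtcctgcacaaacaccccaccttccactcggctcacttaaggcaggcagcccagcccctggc
INHA, chr2:219572060-219572309 (plus strand): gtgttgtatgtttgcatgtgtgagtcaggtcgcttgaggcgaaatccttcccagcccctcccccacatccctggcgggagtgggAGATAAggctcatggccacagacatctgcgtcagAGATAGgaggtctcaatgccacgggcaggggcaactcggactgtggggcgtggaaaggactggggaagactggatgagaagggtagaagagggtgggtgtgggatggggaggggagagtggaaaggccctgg
FSHR, chr2:49154516-49154765 (minus strand): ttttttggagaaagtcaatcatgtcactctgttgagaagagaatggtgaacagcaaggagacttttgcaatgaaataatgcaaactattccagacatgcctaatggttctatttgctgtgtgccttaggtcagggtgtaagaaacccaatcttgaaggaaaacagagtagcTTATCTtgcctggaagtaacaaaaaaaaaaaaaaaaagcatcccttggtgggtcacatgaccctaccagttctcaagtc
The AMH window held 3 matches, INHA 2 and FSHR 1. In WT1, 1 of 4 start sites had a match. No match to these letters was found in the windows of FOXL2, GATA6, KITLG, AMHR2 and LHCGR. Of all 35116 RefSeq windows of this length, 22.33% held at least 1 GATA match. The NR5A1 letters occurred once among the members, in AMH at 90 to 84 bases before the start, and in 4.50% of all windows. These are matches of letters and not measured binding.

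Each library held 17907057 to 18553350 counts in total. One feature of the libraries touches the comparisons over time and the 6-week comparisons with PFOS. Counts of 6 liver genes (ALB, AFP, AHSG, APOB, GPC3 and AMBP) summed to 0 to 1 per library in the 6-week control and 0.01 µM PFOS groups, to 72 to 174 in all other libraries but 1, and to 919 in 12-week control replicate 3. At 6 weeks the sums were 89 to 141 at 0.1 µM and 88 to 115 at 1 µM. Counts of members and of listed genes called were also computed without 12-week control replicate 3.

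Of the 10 genes, 6 were expressed in HGrC1 cells, taking as expressed a mean of at least 1 TPM (transcript abundance scaled for gene length and depth) over the 32 libraries. GATA4 had the highest level with 74.1 ± 7.19 TPM (SD, n = 32), and its lowest library lay at 60.9 TPM. GATA6 followed with 53.9 ± 7.42 TPM. WT1 reached 38.4 ± 3.96 TPM. These levels placed the 3 transcription factors among the genes with values at the 90.0, 86.4 and 81.7 percentile.

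The ligands were lower. AMH was at 13.7 ± 1.94 TPM and KITLG at 11.9 ± 1.38 TPM (SD, n = 32), each above 9 TPM in every library. INHA, at 1.58 ± 0.377 TPM, was close to the limit of 1 TPM and rested on 8 to 31 counts per library. It reached 1 TPM in 30 of 32 libraries.

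FOXL2 was present at trace level only, with a median of 0.635 TPM, a lowest value of 0.32 and a highest value of 1.19 TPM. That corresponds to 10 to 37 counts per library, and 2 of 32 libraries reached 1 TPM. AMHR2 had no library above 3 counts, the upper limit of the expected count that an observed count of 0 allows, and is called here not detected above this floor. It had 0 counts in 19 libraries and at most 3 in any other, 19 counts in all 32 libraries together. FSHR and LHCGR had no value in any library. The tables leave such entries empty and list other genes at 0, and the sources used here do not say what an empty entry stands for, so the level of the 2 gonadotropin receptors is not known from these data.

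**Figure D1:**
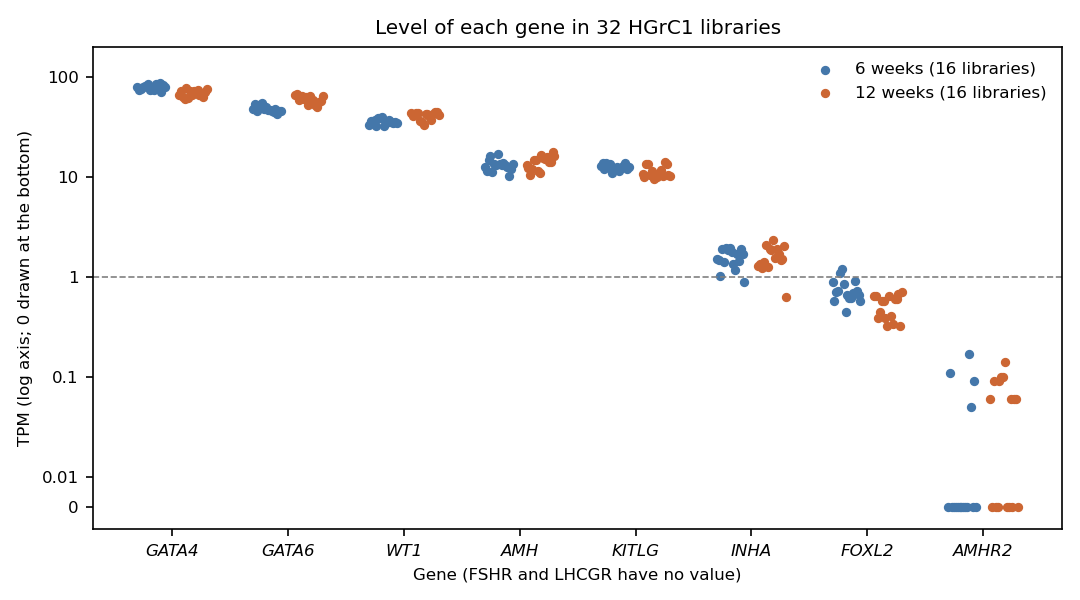
TPM of each gene in each library, on a log axis with 0 drawn at the bottom, where blue points are the 16 libraries of 6 weeks, orange points the 16 libraries of 12 weeks, and the dashed line marks 1 TPM. GATA4, GATA6 and WT1 lie above 30 TPM in every library, AMH and KITLG near 10, INHA and FOXL2 near 1, and AMHR2 at 0 in 19 of 32 libraries.

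The order of the levels was not equally sharp throughout. GATA4 was above GATA6 in 31 of 32 libraries, although their ranges overlapped, and GATA6 was above WT1 in all 32. WT1 was separated from AMH without overlap, and KITLG from INHA likewise, as was FOXL2 from AMHR2. AMH and KITLG were neighbours with overlapping ranges, with AMH the higher in 24 libraries and KITLG in 8. Their difference was not tested. INHA exceeded FOXL2 in 31 of 32 libraries.

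The genes lie apart in the genome except for the gonadotropin receptors, which neighbour each other on the minus strand of chromosome 2 (GRCh38.p14 coordinates of the tables). LHCGR spans 48686774 to 48755724 and FSHR spans 48962157 to 49154515. INHA lies on the plus strand of the same chromosome, from 219572310 to 219575711. FOXL2 is on chromosome 3 (138944224 to 138947137, minus strand), and WT1 on chromosome 11 (32387775 to 32435539, minus strand), where the antisense gene WT1-AS overlaps it. On chromosome 12, AMHR2 spans 53423855 to 53431672 on the plus strand and KITLG spans 88492793 to 88580471 on the minus strand. GATA6 occupies chromosome 18 from 22169589 to 22202528 on the plus strand. GATA4 maps to 8p23.1, but the tables place it on a patch scaffold, so no interval is given for it.

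AMH is on the plus strand of chromosome 19, from 2249323 to 2252073. The gene SF3A2, which encodes a splicing factor subunit, ends 667 bases before the start of AMH on the same strand. SF3A2 was expressed at 128 TPM on average (lowest library 103, highest 149), well above AMH itself. AMH and SF3A2 had a Pearson r of 0.676 over the 32 libraries. Whether reads that run on from SF3A2 were counted for AMH was not tested.

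The label granulosa cell was checked against further markers of these cells. Of 21 other granulosa genes, 12 were expressed, 5 were at trace level and 4 were not detected above the floor. The homeobox factor LHX9 led with 35.9 TPM, followed by RUNX1 at 28.4 TPM and the activin antagonist FST (follistatin) at 17.5 TPM. CYP19A1, the aromatase that makes estradiol, had 1 count in 1 of 32 libraries. RSPO1 was at 0.0075 TPM, NR5A1 at 0.0944 TPM, the estrogen receptor ESR2 at 0.123 TPM and WNT4 at 0.241 TPM. Defining granulosa markers, FOXL2 and CYP19A1 among them, were therefore at trace level or undetected in these libraries, whereas GATA4, GATA6, WT1 and AMH were expressed.

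Markers of other cells were uneven. Of 9 genes of surface epithelium and mesothelium, 8 were expressed, led by the keratins KRT8 (3416 TPM), KRT18 (2613 TPM), KRT19 (2047 TPM) and KRT7 (1091 TPM) and by MSLN (mesothelin, 105 TPM). Of 10 stromal genes, 6 were expressed, among them COL3A1 at 580.1 TPM and COL1A1 at 579 TPM, while DCN was at 0.145 TPM and COL1A2 at 0.0953 TPM. Of 7 genes known from the Sertoli side of the gonad, CLDN11 (153 TPM), PTGDS (16.4 TPM) and SOX9 (10.4 TPM) were expressed, and DMRT1 and FGF9 were not detected above the floor. Of 6 theca and luteal genes, SCARB1 was at 46.5 TPM and HSD3B1 at 19.8 TPM, and CYP17A1, which theca cells need for androgens, was at 0.00906 TPM. Of 5 endothelial genes, KDR was expressed (1.79 TPM) and the other 4 were at trace level, among them PECAM1 at 0.122 TPM. Of 5 leukocyte genes, CD68 (21.4 TPM) and CD14 (7.67 TPM) were expressed, PTPRC was at 0.0900 TPM and CD163 at 0.000625 TPM. Bulk libraries cannot tell fewer cells with a transcript from less of that transcript in each cell.

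**Figure D2:**
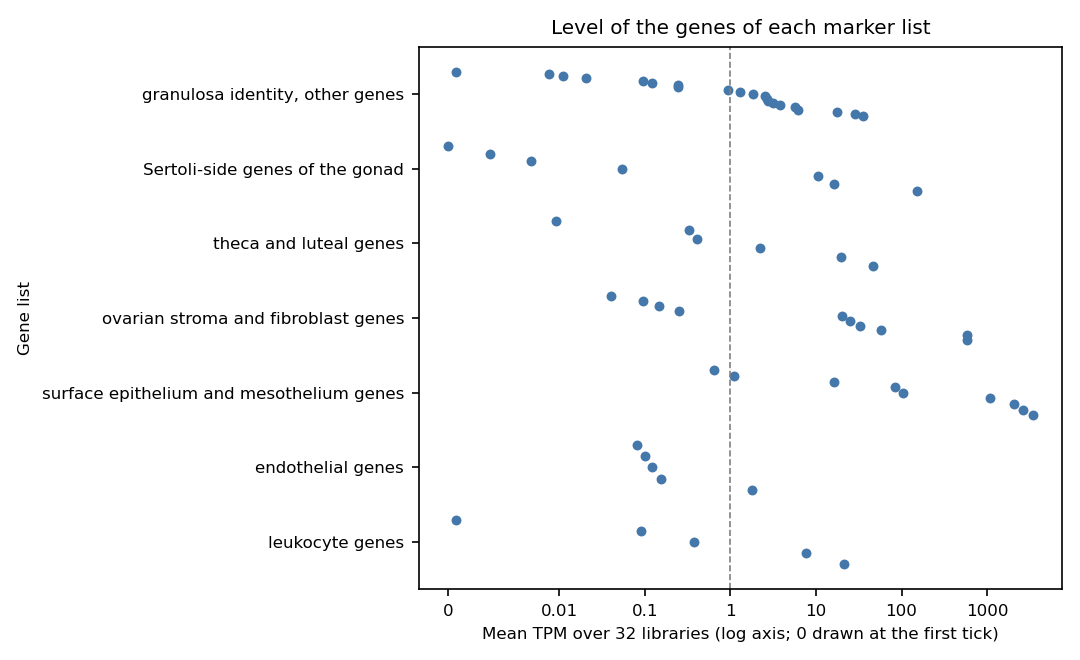
Mean TPM over 32 libraries (log axis, 0 drawn at the first tick) of each gene in 7 marker lists, with 1 point per gene and a dashed line at 1 TPM. The granulosa list runs from CYP19A1 near 0 to LHX9 at 35.9 TPM, and the keratins of the surface epithelium list reach 3416 TPM (KRT8).

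The listed signalling components that act after the gonadotropin receptors were present. The lists were chosen with earlier results of these data known, so their counts describe the line and do not test its response to gonadotropins. All 19 genes listed for gonadotropin receptor signalling were expressed, led by GNAS, which encodes the stimulatory G protein subunit (963 TPM), PRKAR1A (90.9 TPM), GRK6 (58.5 TPM), ARRB2 (58.4 TPM) and PRKACA, the catalytic subunit of protein kinase A (58.0 TPM). Of 17 genes of AMH and inhibin signalling, 14 were expressed. They included the type I receptors ACVR1 (11.8 TPM) and BMPR1A (9.81 TPM), which AMH signalling uses, and the targets ID3 (446 TPM), ID1 (294 TPM) and ID2 (182 TPM). BMPR1B was not detected above the floor, and the inhibin co-receptor TGFBR3 was at 0.304 TPM. KIT, the receptor for KITLG, had at most 2 counts in any library, and the oocyte genes BMP15 and DDX4 had 0 counts in all 32. Of the 9 listed KIT and oocyte genes, 6 had values, and of these ZP3 alone was expressed, at 28.4 TPM. ZP2, FIGLA and NOBOX had no value in any library, so their level is not known either.

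The first comparison asks whether PFOS changed these genes at either time. Tests were run with edgeR on all genes, and a gene was called at a Benjamini-Hochberg adjusted p of at most 0.05. FOXL2, GATA4, GATA6, WT1, AMH, INHA and KITLG, 7 of the 10 genes, passed the filter on low counts, while AMHR2, FSHR and LHCGR were not tested. After 6 weeks, edgeR called 0 of the 7 at any dose. The share of all tested genes called was 0% at 0.01 µM, 4.24% at 0.1 µM and 0.28% at 1 µM. An unadjusted p under 0.05 was reached by 0 members, against 9.60%, 20.8% and 13.7% of all genes. DESeq2 called 0 of the members at 6 weeks as well. In the same comparisons 4 of 4 tested liver genes were called higher at 0.1 µM and at 1 µM, and 0 of 4 at 0.01 µM. The 4 PFOS libraries overlapped the 4 controls for each member, whereas 3.93%, 12.2% and 6.85% of all genes did not overlap.

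After 12 weeks, edgeR again called 0 members at each dose, against 0%, 1.07% and 0.22% of all genes at 0.01, 0.1 and 1 µM. Unadjusted p under 0.05 was reached by 1 member at 0.01 µM (WT1), 1 at 0.1 µM (AMH) and 2 at 1 µM (GATA6 and AMH), against 8.48%, 15.4% and 8.75% of all genes. DESeq2 called 0 members at 0.01 and 1 µM, and AMH at 0.1 µM. All 3 doses of a time were compared with the same 4 control libraries.

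Levels within a gene are given in CPM, counts scaled to library size after TMM normalization. GATA4 had group means between 136 and 142 CPM at 6 weeks and between 120 and 128 CPM at 12 weeks. Relative to its concurrent control its log2 fold changes ran from 0.01 to 0.09. The 95% intervals of the 6 comparisons reached at most from -0.11 to 0.22.

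GATA6 at 12 weeks was 150.4, 153.7, 137.4 and 136.7 CPM in the 4 control vials and 109.5, 125.2, 124.4 and 139.5 CPM at 1 µM PFOS. The groups overlapped through the single 1 µM vial at 139.5 CPM. The difference was -0.22 ± 0.07 (log2 fold change ± SE), with an adjusted p of 0.335 in edgeR and 3 of 4 vials lower than their control. At 0.1 µM it was -0.15 (adjusted p = 0.339), and at 0.01 µM it was -0.06 (adjusted p = 0.850).

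WT1 at 12 weeks was 77.6, 73.2, 76.2 and 79.2 CPM in the control and 75.1, 66.4, 65.5 and 62.0 CPM at 0.01 µM PFOS. Each vial was below its own control, but the groups overlapped, and the log2 fold change of -0.19 ± 0.06 had an adjusted p of 0.565. The higher doses gave -0.10 (0.1 µM) and -0.05 (1 µM), which did not pass either. For FOXL2, with its few counts, 95% intervals at 12 weeks reached from -0.80 to 0.64 on the log2 scale, so changes of that size could not be detected here.

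AMH came nearest to a call among the members. At 12 weeks its 4 control vials were at 13.7, 12.8, 11.3 and 12.5 CPM. At 0.1 µM PFOS the vials were at 17.0, 16.2, 15.5 and 16.1 CPM, and at 1 µM at 14.3, 14.4, 17.5 and 16.1 CPM. At both doses all 4 PFOS libraries lay above all 4 controls, while at 0.01 µM (15.1, 15.5, 12.4 and 12.2 CPM) they overlapped. The log2 fold change was 0.36 ± 0.09 at 0.1 µM (adjusted p = 0.0555 in edgeR) and 0.30 ± 0.09 at 1 µM (adjusted p = 0.242), higher than the control in 4 of 4 vials each. The exact two-sided permutation p was 0.0286 at both doses, the smallest that 4 libraries against 4 can give.

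Over 12 alternatives the adjusted p of AMH at 0.1 µM ran from 0.0232 to 0.380, and it passed in 3 of them. Those were DESeq2 (0.0232), the fit of all 32 libraries (0.0423) and the fit of the 8 libraries compared (0.0473). Without 12-week control replicate 3, which had the lowest AMH of its group and the most liver transcripts, AMH was not called either. At 6 weeks, AMH at 0.1 µM was 13.6 ± 0.400 CPM against 13.6 ± 2.11 CPM in the control (SD, n = 4), and its log2 fold change was -0.01.

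INHA also did not overlap with the 12-week control at 0.1 µM PFOS, with 31, 20, 25 and 22 counts against 17, 18, 17 and 19. With so few counts the log2 fold change of 0.46 ± 0.26 had an adjusted p of 0.403. Of the 7 members, 0 were free of overlap at 0.01 µM, 2 at 0.1 µM (AMH and INHA) and 1 at 1 µM (AMH), against 2.81%, 8.33% and 6.61% of all genes tested.

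KITLG was not called at any dose or time, with log2 fold changes from -0.20 to 0.01. Its 12-week control vials were at 36.9, 35.3, 48.2 and 47.5 CPM and its 1 µM vials at 47.2, 45.6, 34.9 and 34.6 CPM. The libraries numbered 1 and 2 were thus low in the control and high at 1 µM, and those numbered 3 and 4 the reverse. Over all genes, deviations of same-numbered libraries from their group means had a mean correlation of -0.0897 between these groups (lowest -0.136, highest -0.0493). Counts of vials higher or lower between them, GATA6 and AMH included, rest on the numbers in the labels, and whether those numbers mark the same vial here was not tested. The means, 42.0 and 40.6 CPM, were close.

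**Figure D3:**
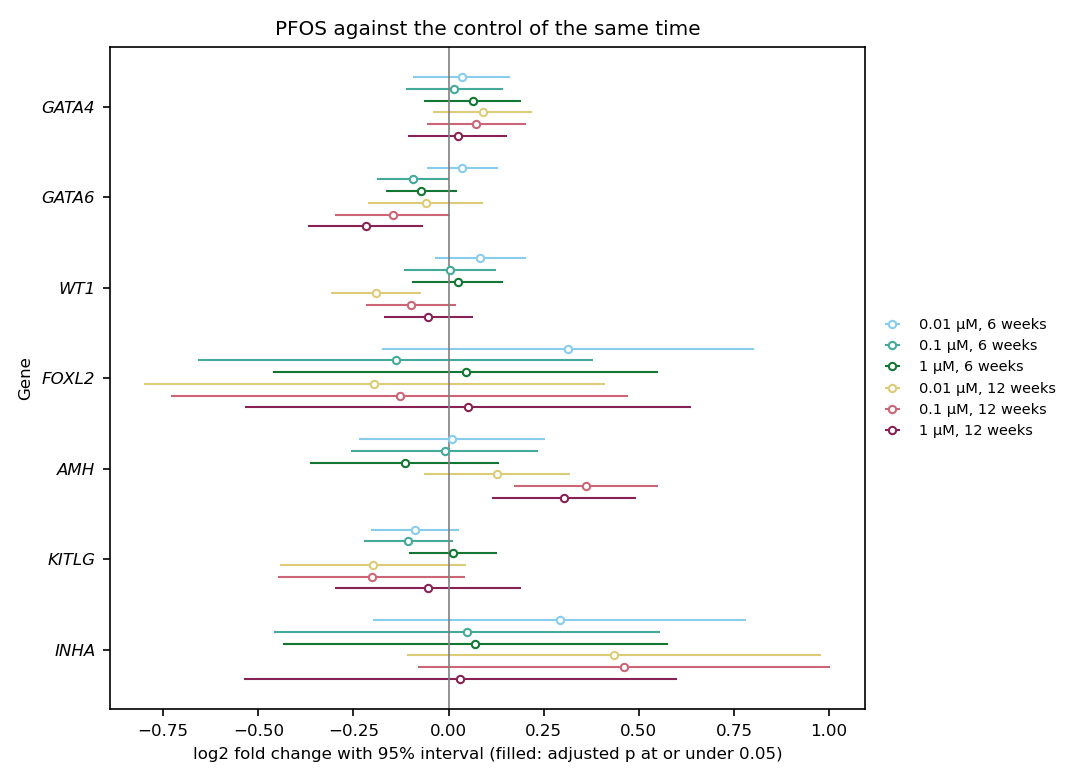
Log2 fold change of each tested gene against its concurrent control, with 95% intervals, for 3 PFOS doses at 6 and 12 weeks, where filled points would mark adjusted p at or under 0.05. No point is filled. After 12 weeks the intervals of AMH at 0.1 and 1 µM lie above 0, and those of GATA6 at 1 µM and WT1 at 0.01 µM lie below 0.

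Among the receptors, AMHR2 had 0 counts in all 4 libraries of the 6-week 0.01 µM group, and its highest single count, 3, was in a 6-week library of 0.1 µM. Each of the 32 libraries was at or below the floor of 3 counts per library, so no fold was computed. FSHR and LHCGR had no value in any control or PFOS library.

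The second comparison is between 12 and 6 weeks within each treatment. Harvest time, passage number and any difference in handling cannot be told apart in it. It moved many genes, 36.6% of those tested in the control, 42.7% at 0.01 µM, 40.3% at 0.1 µM and 30.1% at 1 µM PFOS. Of the 7 tested members, edgeR called 3, 2, 2 and 4, in the same order. Higher after 12 weeks were 2, 1, 2 and 3 members, against 17.3%, 21.4%, 19.7% and 14.2% of all genes, and lower were 1, 1, 0 and 1, against 19.3%, 21.3%, 20.6% and 15.9%. A 2-fold change was reached by 0 of these members and by 3.32%, 3.49%, 3.83% and 3.09% of all genes.

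GATA6 was higher after 12 weeks in every treatment. Control vials were at 104.6, 116.4, 98.7 and 112.4 CPM after 6 weeks and at 150.4, 153.7, 137.4 and 136.7 CPM after 12. At 0.01 µM PFOS they went from 106.7, 118.6, 108.1 and 109.6 to 143.7, 138.4, 147.9 and 126.2 CPM. No 12-week library of either treatment fell into its 6-week range. At 0.1 µM the values were 102.4, 102.3, 101.5 and 99.8 CPM and then 146.1, 130.0, 130.9 and 116.3 CPM. At 1 µM they were 107.7, 95.8, 101.8 and 106.1 CPM and then 109.5, 125.2, 124.4 and 139.5 CPM. Here too the groups did not overlap, by the narrowest margin at 1 µM.

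The log2 fold changes of GATA6 were 0.42 ± 0.06 in the control (adjusted p = 4.56e-06), 0.33 ± 0.06 at 0.01 µM (0.000103), 0.37 ± 0.06 at 0.1 µM (2.95e-05) and 0.28 ± 0.06 at 1 µM (0.00135). All 4 vials were higher in each. The call stood in 11 of 11 alternatives in every treatment. Of 4 tested liver genes, 4 were called higher after 12 weeks in the control and at 0.01 µM, and 0 at 0.1 and 1 µM, where GATA6 was called higher as well.

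WT1 was higher after 12 weeks in 3 of the 4 treatments. In the control it went from 55.3, 63.0, 61.1 and 63.6 CPM to 77.6, 73.2, 76.2 and 79.2 CPM without overlap, a log2 fold change of 0.33 ± 0.06 (adjusted p = 3.02e-05). At 1 µM it went from 61.5, 60.6, 61.5 and 63.8 CPM to 74.3, 76.8, 73.8 and 71.2 CPM, again without overlap (0.26 ± 0.06, adjusted p = 0.000874). At 0.1 µM the change was 0.23 ± 0.06 (adjusted p = 0.00202), with 1 of 4 vials lower, and it missed the threshold without replicate 2 (0.0516). At 0.01 µM it was 0.06 ± 0.06 (adjusted p = 0.404). The difference between 0.01 µM and control in the change over time, tested as an interaction, was -0.27 with an adjusted p of 0.530.

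GATA4 moved the other way. Control vials were at 140.4, 130.9, 133.3 and 140.4 CPM after 6 weeks and at 118.4, 131.0, 118.3 and 111.4 CPM after 12, overlapping in replicate 2. The log2 fold change was -0.19 ± 0.06 in the control (adjusted p = 0.0212) and -0.22 ± 0.06 at 1 µM (adjusted p = 0.00759), and both were called. At 0.01 and 0.1 µM it was -0.13 in each case and not called (adjusted p = 0.111 and 0.106). The call in the control was lost without replicate 1 (0.112), 3 (0.0539) or 4 (0.142), and that at 1 µM without replicate 1 (0.142).

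The ratio of GATA6 to GATA4, taken from TPM within each library and examined after the values were seen, therefore differed between the times. It was 0.639 ± 0.0548 in the 6-week control and 0.965 ± 0.0379 in the 12-week control (SD, n = 4). After 6 weeks the PFOS groups had means of 0.570 to 0.631, and after 12 weeks of 0.820 to 0.870. The highest 6-week library of all, at 0.710, was below the lowest 12-week library, at 0.743. At 12 weeks the libraries of 0.1 µM (0.788 to 0.890) and 1 µM PFOS (0.743 to 0.886) lay below those of the control (0.930 to 1.01), and those of 0.01 µM (0.798 to 0.971) overlapped them. This difference of the ratio from the control was not tested, and edgeR called neither GATA6 nor GATA4 at these doses. Of all single genes, 8.33% at 0.1 µM and 6.61% at 1 µM did not overlap with the control, and no share over ratios was computed.

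FOXL2 remained a trace transcript at both times. At 0.01 µM PFOS its counts were 34, 37, 27 and 14 after 6 weeks and 18, 19, 13 and 11 after 12 weeks, lower in 4 of 4 vials with overlapping groups. The log2 fold change of -0.86 ± 0.26 was called (adjusted p = 0.00853) and was lost without replicate 2 (0.0530). In the control, at 0.1 µM and at 1 µM the changes were -0.36, -0.35 and -0.35, none of them called.

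AMH was called over time in 1 treatment. At 1 µM it went from 13.0, 10.5, 12.5 and 14.4 CPM to 14.3, 14.4, 17.5 and 16.1 CPM. Those groups overlapped slightly, and the log2 fold change of 0.30 ± 0.11 passed with an adjusted p of 0.0280 but no longer did when replicate 2 (0.108) or 3 (0.213) was left out. At 0.1 µM all 12-week libraries lay above all 6-week libraries, with 0.25 ± 0.11 and an adjusted p of 0.0526, or 0.0469 with the vial as a replicate block. In the control AMH was 13.6 CPM after 6 weeks and 12.6 CPM after 12 (-0.12 ± 0.11, adjusted p = 0.417).

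The remaining ligands showed no called change over time. KITLG had log2 fold changes of -0.07 to -0.17, and INHA of -0.11 to 0.34. Of the 7 tested members, 2 did not overlap between the times in the control, 1 at 0.01 µM, 2 at 0.1 µM and 2 at 1 µM, against 31.3%, 33.2%, 39.7% and 30.4% of all genes.

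**Figure D4:**
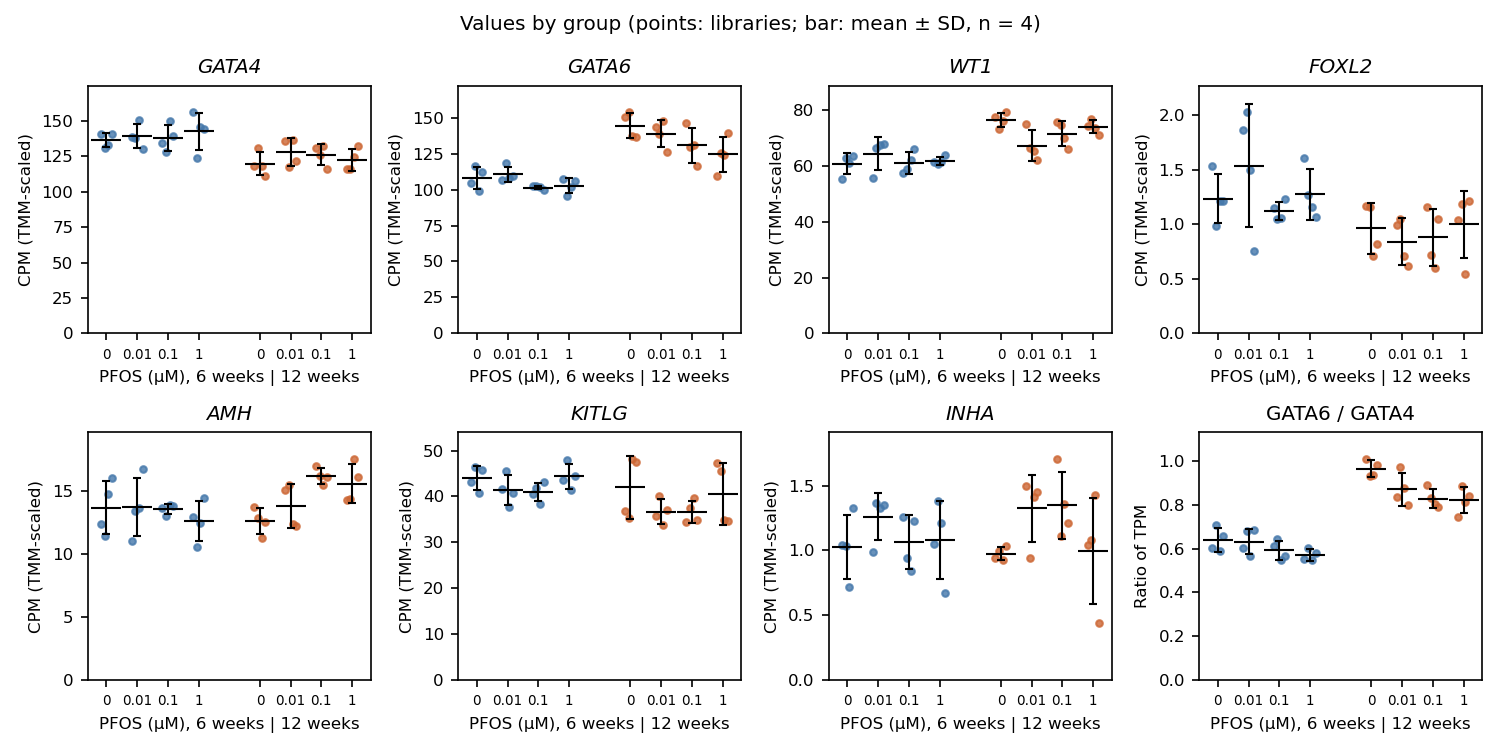
Each library (points), the mean and SD (black bars, n = 4) of 7 genes in TMM-scaled CPM and of the GATA6 to GATA4 ratio of TPM, by PFOS dose, with 6 weeks in blue and 12 weeks in orange and all axes starting at 0. GATA6 lies higher at 12 than at 6 weeks in all 4 treatments, and at 12 weeks AMH at 0.1 and 1 µM lies above all 4 controls.

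**Figure D5:**
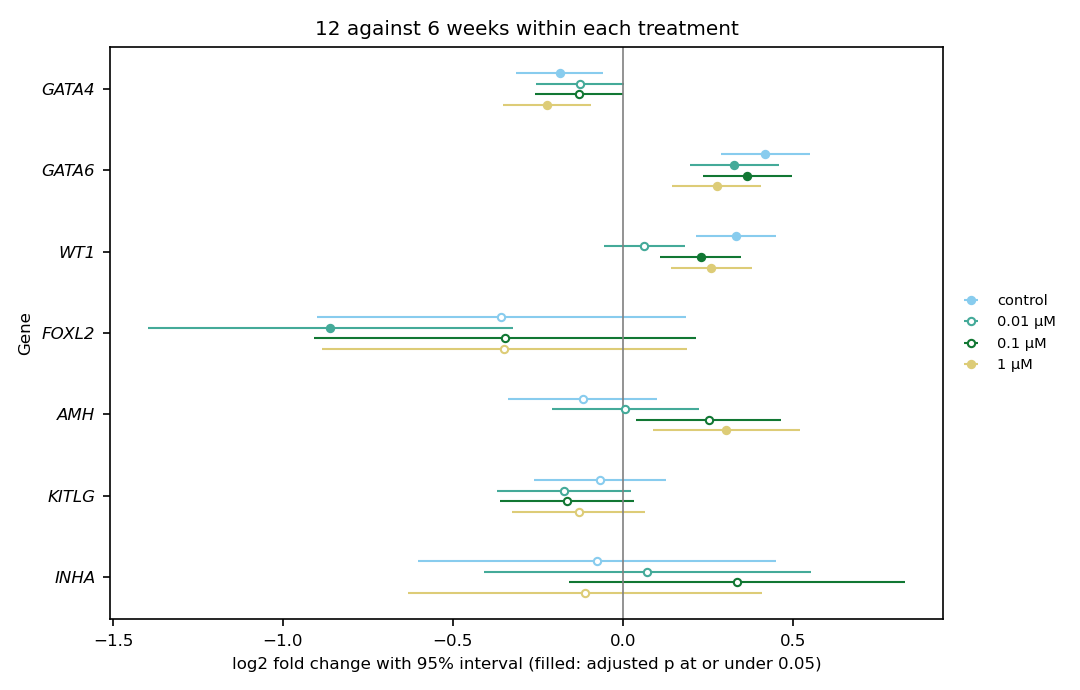
Log2 fold change of each tested gene between 12 and 6 weeks with 95% intervals, for the control and 3 PFOS doses, where filled points have an adjusted p at or under 0.05. GATA6 is filled in all 4 treatments, WT1 in 3, GATA4 in 2, and FOXL2 and AMH in 1 each.

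Whether the effect of PFOS differed between the times was tested as an interaction over all 32 libraries. edgeR called 0 of the 7 members at each dose, against 0%, 0.208% and 0.123% of all genes at 0.01, 0.1 and 1 µM, and DESeq2 called 0 members too. At each dose 1 member had an unadjusted p under 0.05, against 7.48%, 14.5% and 12.1% of all genes. It was WT1 at 0.01 µM (above) and AMH at the other doses, with interaction terms of 0.37 ± 0.15 at 0.1 µM (adjusted p = 0.240) and 0.42 ± 0.15 at 1 µM (adjusted p = 0.258). The difference of AMH from the control was therefore not shown to depend on the time.

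The calls over time among other granulosa genes were in 1 direction. Of 15 tested, 0 were higher and 7 lower after 12 weeks in the control, 0 and 8 at 0.01 µM, 0 and 6 at 0.1 µM, and 0 and 7 at 1 µM. Among all genes, higher and lower calls were about equally frequent (17.3% and 19.3% in the control), and the list's median log2 fold change in the control was -0.44 against 0.00 over all genes. At 0.01, 0.1 and 1 µM the list's medians were smaller, at -0.30, -0.12 and -0.22. The direction was not particular to this list. Of 4 tested theca and luteal genes, 0 were higher and 3 lower in the control, with a median of -0.88. At 0.01, 0.1 and 1 µM, 0 of these 4 were higher, and 3, 2 and 1 were lower. LHX9 fell from 88.2 to 35.2 CPM in the control (-1.33 ± 0.17, adjusted p = 2.08e-06), and BMP2 from 5.14 to 1.56 CPM (-1.71). CYP11A1, which starts steroid synthesis from cholesterol, fell from 1.70 to 0.412 CPM (-2.03), and FST by 0.44 on the log2 scale. STAR, which carries cholesterol into the mitochondrion, fell in the PFOS groups by 0.95, 1.15 and 0.92. In the interaction tests of time and PFOS, 0 of the 15 granulosa genes were called at any dose. The fall of STAR was therefore not shown to differ from its change in the control.

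The signalling lists held calls in both directions. Of 16 tested genes of AMH and inhibin signalling, 1 was higher and 8 were lower in the control after 12 weeks, 3 and 4 at 0.01 µM, 2 and 4 at 0.1 µM, and 1 and 4 at 1 µM. Without 12-week control replicate 3 the control had 3 higher and 8 lower. In the control this list thus leaned to lower calls, whereas 17.3% of all genes were higher and 19.3% lower. Its median log2 fold change was -0.19 in the control, and -0.08, -0.03 and 0.00 at 0.01, 0.1 and 1 µM. ACVR2B, an activin type II receptor, rose by 0.61 in the control, and ACVR1B (-0.29), TGFBR3 (-1.18), ID3 (-0.38) and ID1 (-0.46) fell. Of 19 tested genes of gonadotropin receptor signalling, 2 were higher and 3 lower in the control, 3 and 5 at 0.01 µM, 3 and 3 at 0.1 µM, and 3 and 4 at 1 µM. Over all genes 17.3% were higher and 19.3% lower in the control, so the counts for this list are no larger there than those of all genes. ARRB2, which uncouples receptors, rose by 0.60 and CREB1 by 0.22 in the control, and PRKAR2B fell by 1.48 and ADCY6 by 0.20.

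Some markers of other cells were called between the times as well. In the control, MSLN rose from 106 to 160 CPM (0.59 ± 0.06, adjusted p = 6.57e-10), while CALB2 (-1.04) and KRT7 (-0.45) fell. MSLN was higher and CALB2 lower in all 4 treatments. PTGDS rose from 1.93 to 9.91 CPM and HSD3B1 fell from 22.5 to 9.64 CPM.

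By list, in the control, 3 of 9 tested surface epithelium genes were higher and 3 lower. Of 9 stromal genes, 1 was higher and 3 lower, and of 3 Sertoli-side genes, 1 was higher and 0 lower. Lower only were 3 of 4 theca and luteal genes, 2 of 4 endothelial genes and 1 of 2 leukocyte genes. Over all genes 17.3% were higher and 19.3% lower. Without 12-week control replicate 3, 2 surface epithelium genes were higher and 4 lower, and 4 theca and luteal genes were lower. The counts of the stromal, Sertoli-side, endothelial and leukocyte lists were then as before. The lower ones included PECAM1 (-2.65), PDGFRA (-1.87) and CD14 (-0.88). The summed TPM of the 9 surface epithelium genes was 9680 to 10271 in the 6-week control and 8917 to 9312 in the 12-week control. That of the 10 stromal genes was 1285 to 1361 and 1126 to 1324, that of the 5 endothelial genes 2.50 to 3.77 and 1.05 to 2.10, and that of the 5 leukocyte genes 31.5 to 34.2 and 20.03 to 31.6. PTPRC was at 0 counts in 5 libraries and CD163 in 31 of 32. The part of these differences in the results for GATA6, WT1 and GATA4 was not tested.

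Among the lists, calls against the control were made at 6 weeks. The liver genes ALB, AFP, AHSG and APOB, all 4 tested, were higher at 0.1 and 1 µM, where the control libraries held 0 to 1 counts of the whole list. At 6 weeks and 0.1 µM, 1 of 15 granulosa genes was higher (RUNX1, 0.12) and 2 were lower (INHBB, which encodes an inhibin and activin beta subunit, -0.51, and BMP2, -0.59). In the AMH and inhibin list, ACVR2B was higher (0.42), and SMAD7 (-0.26), ID2 (-0.40) and ID3 (-0.18) were lower. At 1 µM and 6 weeks, SMAD7 (-0.30) and ID3 (-0.20) were lower. In the surface epithelium list, KRT7 (-0.38) and KRT18 (-0.12) were lower at 0.1 µM and 6 weeks. Over all genes 4.24% were called at 0.1 µM and 0.28% at 1 µM. In each direction the number of calls in each of these lists fell to 0 in at least 1 of 11 alternatives. The number higher ran from 0 to 1 in the granulosa list and from 0 to 2 in the AMH and inhibin list at 0.1 µM. The number lower ran from 0 to 3 in the granulosa list, from 0 to 4 in the AMH and inhibin list at either dose, and from 0 to 2 in the surface epithelium list at 0.1 µM, and the number of liver genes higher from 0 to 6 at 0.1 µM and 0 to 4 at 1 µM. In the gonadotropin receptor signalling list 0 of 19 genes were called at any dose and time. At 12 weeks, 0 genes of the granulosa, AMH and inhibin, gonadotropin receptor and surface epithelium lists were called at any dose.

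As a description, the genes whose log2 CPM followed each member most closely over the 32 libraries were sought among 12614 genes with a mean of at least 10 counts. The libraries share 2 times, 4 vials and 1 line, so these are not independent points. For GATA6 they were TPRN (Pearson r = 0.911), YBX3 (0.908) and NOP53 (0.897), and within the 6-week libraries alone r for YBX3 was 0.198. For WT1 they were ADAMTS2 (0.869), COL6A1 (0.863) and ELF4 (0.863), and for GATA4 TBC1D17 (0.857), RARA (0.835) and YPEL3 (0.83). AMH was followed by TAF1C (0.875), RHBDF1 (0.858) and DOT1L (0.828), with r of 0.806 at 6 weeks and 0.940 at 12 weeks for TAF1C. For KITLG they were PYGL (0.879), MAN2A1 (0.871) and NCEH1 (0.847). FOXL2 (FRY, 0.771, FNBP1, 0.728, and CHN2, 0.704) and INHA (ZNF26, 0.580, ASB3, 0.578, and IFNAR2-IL10RB, 0.573) had lower values. Between the members, GATA6 and WT1 had r = 0.726 over all libraries but 0.369 within 6 weeks and 0.172 within 12 weeks.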

How the data were processed

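RNA of the HGrC1 cell line was measured in 32 stranded poly(A) libraries on a DNBSEQ platform. Per the submitters' processing notes and the study's methods, clean reads were aligned to GRCh38.p14 with HISAT2 2.0.4 or to reference genes with Bowtie2 2.2.5, and RSEM 1.2.8 gave the values. The authors deposited expected counts per gene (not normalized), TPM and FPKM. A table of normalized counts, which the authors also deposited, was not used. How counting treated strand is not given in the sources used here. Groups were taken from the labels, and 0 columns were left without a sample.

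The expected counts deposited by the authors were rounded to whole numbers. Tests were two-sided and used edgeR 4.0.16 in R 4.3.3, with filterByExpr, TMM factors and a robust quasi-likelihood fit, and p-values were adjusted by Benjamini-Hochberg over all genes tested. PFOS was compared with the control of the same time in a fit of the 16 libraries of that time, and the comparisons over time and the interactions used all 32. Genes were called at an adjusted p of at most 0.05, and as DEGs if also changed at least 2-fold. SEs are the log2 fold change divided by the square root of F. Single genes were also compared by exact permutation of mean log2(CPM + 1). Levels between genes use the TPM the authors deposited. The FPKM values the authors deposited served as 1 alternative. The fit was tested on simulated data. DESeq2 1.42.0, RLE factors, other filters, other sets of libraries, a vial block and leaving out vials were the alternatives. A count of 0 allows up to 3 counts, for counting error only.

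Replicate numbers were taken to mark the vials, since each vial was split over the treatments. Deviations of same-numbered libraries from their group means had mean correlations of 0.0515 to 0.0980 between 6-week groups and -0.0897 to 0.170 between 12-week groups, the lowest between the control and 1 µM. Between groups of different times they were -0.0637 to 0.111. Counts of vials higher or lower over time therefore also rest on the numbers in the labels. Of 48 pairs of replicates, 0 agreed within sampling noise. The genes and lists were chosen with earlier results of these data known. The text names the 10 genes throughout, listed genes with an adjusted p of at most 0.05 (at most 5 per list and comparison) or at least 10 TPM (at most 5 per list), and the 3 genes most correlated with each member. Low or undetected genes of the lists are named in addition, chosen after their values were seen. One listed gene is not reported here by name. Promoters are RefSeq's.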

Additional observations from a re-analysis of the deposited data

Results flagged for a closer look

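Of 56 sets of 4 libraries (7 tested genes in 8 groups), 3 held 1 library far from the other 3 by Dixon's test, and chance alone flags about 1 in 20 sets. WT1 in replicate 1 of the 6-week 0.01 µM group was at 55.6 CPM, against 66.5 to 67.9 CPM in the other vials. The same library had the lowest INHA of its group, at 0.989 CPM against 1.33 to 1.37 CPM. In the 12-week 0.01 µM group, INHA in replicate 2 was at 0.940 CPM against 1.42 to 1.495 CPM, which is 17 counts against 26 to 27.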

How the results depend on the processing

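Of 154 recomputed counts, 149 stayed within 1.5 times the main count, and no direction turned. The number of members called at 0.1 µM PFOS after 12 weeks was 0, and 1 (AMH) with DESeq2, with all 32 libraries in 1 fit and with only the libraries of the groups compared. Between 12 and 6 weeks at 0.1 µM it was 2, and 5 when only the libraries compared were fitted, which added GATA4, AMH and KITLG. The cause was not tested. With the vial as a replicate block the counts were 3 (control), 2 (0.01 µM), 3 (0.1 µM) and 4 (1 µM), and beyond AMH at 0.1 µM, given above, the block changed no call. Leaving out each vial in turn gave 2 to 3 calls in the control, 1 to 2 at 0.01 µM, 2 to 2 at 0.1 µM and 3 to 4 at 1 µM for the comparison over time, and 0 to 0 for every comparison with PFOS. Without replicate 2, GATA4 at 0.1 µM was called over time (adjusted p = 0.0490). Without 12-week control replicate 3 no count of members changed. Members expressed numbered 6, and 5 when 1 TPM was asked of every library, 7 at a mean of 0.5 TPM or 1 CPM, 6 by FPKM, and 6 to 6 when a vial was left out. INHA could not be fitted where 10 counts in every library were required in a fit with the 12-week 1 µM library at 8 counts. For other granulosa genes, calls over time in the alternatives were 5 to 8 lower in the control and 4 to 7 at 1 µM, and at most 1 higher. At this depth INHA and FOXL2 rest on few counts, so only large changes in them could be detected.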
